A study of Mus musculus with 2 samples.

Results

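The cells described here were liver cells that carried RNA of the cell division programme, and are named cycling nonparenchymal cells after the lineages that most of them could be assigned to. No step of their choice removed hepatocytes, and the share of hepatocyte counts in the members is given below. They were chosen by the measured counts of 5 genes, Mki67, Top2a, Hist1h1b, Hist1h2ap and Hist1h2ae, whose sum per cell is called P here. A member had P of at least 5 raw counts and at least 5 per 10000 counts, within cells of at least 100 detected genes, at most 10% mitochondrial counts and 2000 to 20000 counts in all. This gave 80 cells of 6116 deposited and of 3411 in the count window. The library labelled AEG-1DMAC held 30 of 1331 cells in the window, and the library labelled AEG-1fl/fl held 50 of 2080.

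Both libraries were livers of mice 27 weeks old, which had received a high-fat high-sugar diet (HF/HSD) over 20 weeks, starting at the age of 7 weeks. AEG-1DMAC mice lack AEG-1, the product of Mtdh, in cells that express a Lyz2-driven Cre, which acts in macrophages and also in other myeloid cells. Their AEG-1fl/fl littermates carry the floxed gene without that deletion. There was 1 library per genotype, the sex of the mice in each library and any pooling of livers were not given in the sources used here, and no test between genotypes was possible. Frozen tissue was fixed and dissociated before a probe-based count of each gene, so a level is the share of a gene in the summed counts of a group of cells, per 1000000 (CPM), and is compared between cells, not between genes. Intervals are exact 95% intervals, which cover counting error only.

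A dividing cell first copies its DNA in S phase, when the MCM helicase, PCNA, nucleotide synthesis enzymes and new histones are needed, and then separates the copies in G2 and mitosis with CDK1, its cyclins, spindle kinesins and the cytokinesis machinery. E2F factors are known to act on promoters of S-phase genes, and the MuvB complex acts on G2 and mitotic genes through the cell cycle homology region (CHR), often next to a CCAAT box. Most cells of an adult liver rest outside the cycle, and Kupffer cells, the resident macrophages, can renew by dividing in place under CSF1.

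The lists used to describe phase held none of the 5 selection genes, and promoters of the S list and the G2/M list differed in the motifs they held. Promoter windows of 250 bases before and 50 bases after the start (RefSeq, GRCm38.p6) were found for 19 of 24 S genes and 22 of 25 G2/M genes. Both strands were searched, and a gene with several windows counted once if any held the motif. The CHR letters TTTGAA were in 16 of the 22 G2/M genes (72.7%), 2 of the 19 S genes (10.5%) and 20.2% of all 27025 genes with a window. A CCAAT box, CCAAT, was in 19 G2/M genes (86.4%), 13 S genes (68.4%) and 41.1% of all genes. An E2F match, TTTCCCGC or TTTGGCGC, was in 7 S genes (36.8%), no G2/M gene and 1.8% of all genes. Of the selection genes, Mki67 and Top2a had a window, and each held TTTGAA and CCAAT.

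The 250 bases before the start are shown for the genes of each list with the most member counts among those whose motif lies there. Capitals mark E2F and CCAAT matches on either strand for Mcm7 (chr5:138171884-138172133, minus strand) and Mcm5 (chr8:75109259-75109508, plus strand), which encode subunits of the replicative helicase.
Mcm7: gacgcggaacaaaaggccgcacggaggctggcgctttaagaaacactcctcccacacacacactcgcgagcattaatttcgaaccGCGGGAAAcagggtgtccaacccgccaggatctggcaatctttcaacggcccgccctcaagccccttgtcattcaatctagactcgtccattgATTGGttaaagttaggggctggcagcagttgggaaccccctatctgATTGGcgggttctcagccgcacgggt
Mcm5: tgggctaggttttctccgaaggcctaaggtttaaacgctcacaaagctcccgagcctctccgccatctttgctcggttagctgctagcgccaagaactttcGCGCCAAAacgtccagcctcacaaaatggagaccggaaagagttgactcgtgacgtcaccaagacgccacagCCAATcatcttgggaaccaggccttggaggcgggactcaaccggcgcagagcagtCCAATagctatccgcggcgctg
For Kif11 (chr19:37376132-37376381, plus strand), the kinesin that pushes spindle poles apart, and Cdk1 (chr10:69352913-69353162, minus strand), the mitotic kinase, capitals mark CHR and CCAAT matches. In Kif11 the CHR letters began 19 bases before the start and the CCAAT box 45 bases before it. Cdk1 held CHR letters 71 and 15 bases before the start and CCAAT boxes 208, 80 and 48 bases before it. No capitals of different motifs overlapped.
Kif11: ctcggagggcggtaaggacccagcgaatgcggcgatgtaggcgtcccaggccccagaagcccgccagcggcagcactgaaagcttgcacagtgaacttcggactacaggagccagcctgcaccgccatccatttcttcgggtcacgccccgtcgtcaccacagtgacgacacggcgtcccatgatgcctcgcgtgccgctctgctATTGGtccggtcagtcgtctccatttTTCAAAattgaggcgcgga
Cdk1: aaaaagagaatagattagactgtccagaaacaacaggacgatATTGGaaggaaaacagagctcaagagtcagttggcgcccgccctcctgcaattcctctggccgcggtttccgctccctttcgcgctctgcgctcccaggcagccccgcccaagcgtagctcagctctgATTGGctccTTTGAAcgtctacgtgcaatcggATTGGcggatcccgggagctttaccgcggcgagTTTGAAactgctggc

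Mtdh (chr15:34082694-34145624, plus strand, GRCm38), the targeted gene, went against the labels. Members of the library labelled AEG-1DMAC held 21 Mtdh counts, 74.6 CPM (46.2 to 114), and those of the library labelled AEG-1fl/fl 23 counts, 52.4 CPM (33.2 to 78.6). Among macrophage-like cells outside the members the levels were 89.3 CPM (80.7 to 98.7) and 35.5 CPM (31.1 to 40.4), beside a median hepatocyte share of 13.7% and 6.75% of counts, whose part in this difference was not tested. In endothelial-like cells outside the members Mtdh stood at 102 and 105 CPM, and in stellate-like ones at 108 and 104 CPM. The members' intervals overlapped, Mtdh was not lower in the library labelled as the deletion, and the positions of its probes relative to the deleted part are not known here. Every direction below is between libraries as labelled. The deposited cells held 79589511 and 90440089 counts in the libraries labelled AEG-1DMAC and AEG-1fl/fl, and members had a median of 9089 and 8071 counts and of 3579 and 3535 genes. The libraries had 10 barcodes in common among deposited cells, and no barcode was a member in both.

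The selection genes themselves are given as a description. Mki67 (chr7:135689784-135716361, minus strand), the Ki-67 protein that coats mitotic chromosomes, had a median of 4 counts per member in each library, with a highest cell of 38 in the library labelled AEG-1DMAC and 22 in the other. Its summed level was 704 and 649 CPM in members, against 7.45 and 7.84 CPM in other cells of the window. Top2a (chr11:98992943-99024189, minus strand), which untangles replicated DNA, stood at 579 and 442 CPM, against 4.27 and 4.81. The histone genes on chromosome 13 are transcribed mainly while DNA is copied. Hist1h1b (chr13:21779883-21780625, minus strand), a linker histone, had 277 CPM (78 counts in 19 of 30 members) in the library labelled AEG-1DMAC and 629 CPM (276 counts in 41 of 50) in the other. Hist1h2ap (chr13:21833026-21833507, minus strand) had 679 and 1007 CPM, and Hist1h2ae (chr13:23570517-23571220, minus strand) 288 and 526 CPM, both core histones H2A. Histone counts made up 49.2% of P in the library labelled AEG-1DMAC and 66.5% in the other.

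P ranged from 5 to 135 with a median of 10 in the library labelled AEG-1DMAC and from 5 to 137 with a median of 16 in the other. There were 7 members of 30 and 22 of 50 with P of at least 20. Most cells of the window, 1098 and 1648, had no count of the 5 genes. Just inside the limit, the members with P of 5 or 6 numbered 7 and 10 and had median S-list counts of 2 and 5 and median G2/M-list counts of 2 and 7.5. Just outside it, 11 and 38 cells with P of 3 or 4 had median S-list counts of 3 and 4 and a median of 2 G2/M-list counts in each library. A further 3 and 6 cells reached 5 raw counts but not 5 per 10000. Counts of the 5 genes also appeared in neutrophil-like cells, a lineage known not to divide once mature. Such cells carried at least 1 in 28.6% of 7 cells (median depth 2893 counts) and 16.7% of 24 cells (4201), next to 20.7% and 26.3% of macrophage-like cells (7831 and 6943).

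Macrophage-like cells were the largest class of the cycling cells under the limits used, an order that depended on the limits in the library labelled AEG-1DMAC. Each cell was assigned by 10 panels of lineage marker genes, with a lead of at least 2 times over the next panel, and the names carry "-like" for that reason. Macrophage-like cells made up 14 of 30 members (46.7%, 28.3 to 65.7) and 29 of 50 (58.0%, 43.2 to 71.8) in the libraries labelled AEG-1DMAC and AEG-1fl/fl. Endothelial-like cells followed with 7 of 30 (95% interval 9.93 to 42.3%) and 6 of 50 (4.53 to 24.3%). Among members with P of at least 10 raw and per 10000, macrophage-like and endothelial-like cells numbered 4 (30.8%) and 5 (38.5%) of 13 in the library labelled AEG-1DMAC, and 18 (58.1%) and 1 (3.23%) of 31 in the other. With 6 single markers in place of the panels they numbered 8 (26.7%) and 9 (30.0%) of 30 in the library labelled AEG-1DMAC, so that the order turned there under both settings. Dendritic-like cells numbered 2 and 3, T/NK-like cells 1 and 3, cholangiocyte-like cells 1 and 1, and stellate-like cells 0 and 2. No member was B-like, plasma-like, neutrophil-like or erythroid-like. Another 4 and 5 members were mixed, with 2 panels close together, and 1 in each library was unresolved.

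**Figure D1:**
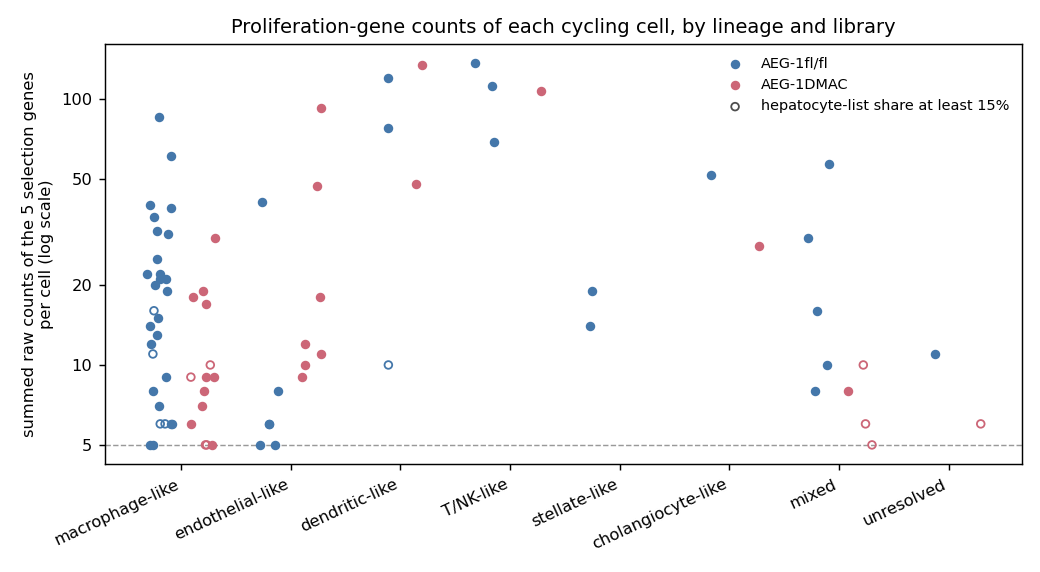
Summed raw counts of the 5 selection genes in each of the 80 cycling cells (vertical axis, log scale; dashed line at 5), by lineage and library; open circles are cells with at least 15% hepatocyte-gene counts. The cells above 100 are T/NK-like or dendritic-like, and no macrophage-like cell of the library labelled AEG-1DMAC exceeds 30.

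The 6 single markers are each part of the panel that assigned their class, so their counts by class are a description. Some members of a class lacked its marker. Siglec1, the sialoadhesin of resident macrophages, had 25 counts in 8 of 14 macrophage-like members of the library labelled AEG-1DMAC and 181 counts in 25 of 29 of the other. Among endothelial-like cells outside the members, which should lack it, 2.69% (median depth 4366 counts) and 5.36% (3995.5) carried a Siglec1 count. Ptprb, an endothelial phosphatase, was counted in all 7 and all 6 endothelial-like members, with 56 and 34 counts. Trac, of the T cell receptor, was counted in 1 of 1 and 1 of 3 T/NK-like members. The dendritic marker Flt3 was counted in 2 of 2 and 2 of 3 dendritic-like members. Reln, the stellate marker, was counted in 2 of 2 stellate-like members of the library labelled AEG-1fl/fl. Cd79a, part of the B cell receptor, had no count in any of the 80 members.

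The rare lineages held the members with the highest P. One T/NK-like member of the library labelled AEG-1DMAC had P of 108 and 163 G2/M-list counts, with 21 counts of Trac (T cell receptor alpha constant region), 14 of Cd3e and 16 of Nkg7. The 3 T/NK-like members of the other library had P of 137, 112 and 69. The last of these carried 13 counts of Ncr1 and 6 of Klre1, both natural killer receptors. Dendritic-like members had P of 135 and 48 in the library labelled AEG-1DMAC, and 120, 78 and 10 in the other. The cell with P of 78 had 30 counts of Clec9a and 6 of Xcr1, markers of cross-presenting dendritic cells, and the cell with P of 120 had 11 counts of Cd209a, a marker of another conventional subset. Markers of both subsets were thus counted in cycling cells. The cell with P of 10 had 22.7% hepatocyte-gene counts.

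The cholangiocyte-like and stellate-like members were single cells with clear panels. A cholangiocyte-like member of the library labelled AEG-1DMAC had P of 28 and 152 S-list counts, the highest S count of any member, with 14 counts of Sox9 and 7 of Epcam, an epithelial adhesion protein. It also held 198 of the 202 Spp1 (osteopontin) counts of all 30 members, so the Spp1 level of the members there was that of 1 cell. Its counterpart in the other library had P of 52 and 83 of 188 Spp1 counts. The stellate-like members had P of 19, with 25 counts of Ngfr, 24 of Dcn and 70 G2/M-list counts, and P of 14, with 16 counts each of Dcn and Ecm1. One unresolved member of the library labelled AEG-1fl/fl had P of 11, 91 G2/M-list counts and was led by Cd74 (425 counts) and H2-Eb1 (302 counts), genes of antigen presentation. The other unresolved member was led by Alb (262 counts), and hepatocyte genes made up 20.4% of its counts.

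Mixed members held 2 lineages at close levels. In the library labelled AEG-1fl/fl the leading pairs were 66 endothelial and 64 macrophage panel counts, 43 and 41 of the same pair, 54 macrophage and 39 stellate, 20 and 15 of that pair, and 18 macrophage and 14 cholangiocyte. Those of the other library were 78 macrophage and 69 stellate, 34 and 26 of that pair, 28 macrophage and 22 T/NK, and 5 endothelial and 3 macrophage. Doublets were not called, and the part of doublets in these cells was not tested.

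The shares of cycling cells had overlapping intervals at full depth. The share was 2.25% (1.53 to 3.20) in the library labelled AEG-1DMAC and 2.40% (1.79 to 3.16) in the other. Within macrophage-like cells it was 2.90% (1.59 to 4.82, 14 of 483) and 3.52% (2.37 to 5.02, 29 of 824). Endothelial-like cells gave 3.63% (1.47 to 7.33, 7 of 193) and 2.10% (0.774 to 4.51, 6 of 286). In every lineage counted here the intervals of the libraries overlapped. The dendritic-like shares were 10.5% (1.30 to 33.1, 2 of 19) and 6.67% (1.40 to 18.3, 3 of 45), and the T/NK-like shares 3.57% (1 of 28) and 4.41% (3 of 68). Stellate-like cells gave 0 of 167, which allows a share of up to 1.80% by a limit of 3 counts (exact upper limit 2.18%), and 0.862% (2 of 232). B-like cells gave 0 of 22 and 0 of 27, which allow up to 13.6% and 11.1% by the same limit (exact upper limits 15.4% and 12.8%). Shares of cycling B-like cells below those limits remain possible.

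**Figure D2:**
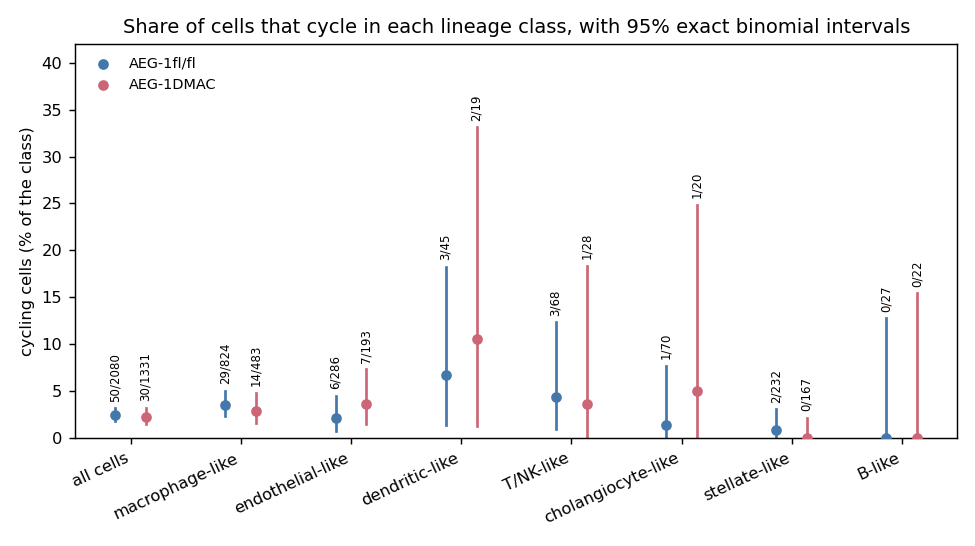
Percentage of cycling cells in all cells of the window and in each lineage class (points; numbers are cycling cells over cells), with exact 95% binomial intervals, for both libraries. The intervals overlap in every class shown, and those of dendritic-like, T/NK-like, cholangiocyte-like and B-like cells are wide.

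With every cell of at least 5000 counts thinned to 5000, the shares were 1.61% (0.885 to 2.69, 14 of 868) and 2.77% (1.94 to 3.83, 35 of 1263), so that the lower share stayed with the library labelled AEG-1DMAC and the intervals still overlapped. Thinned macrophage-like cells gave 1.69% (6 of 356) and 3.33% (19 of 570). A thinned cell had to keep at least 5 counts of the 5 genes among 5000, a stricter rate than 5 per 10000. The thinned shares thus differ from those at full depth in the limit as well as in depth.

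The hepatocyte share was lower in members than in other cells of the window. The summed share of 40 hepatocyte genes had a median of 7.20% in members of the library labelled AEG-1DMAC (0.501 to 22.8) and 3.77% in the other (0.909 to 22.7), against 13.2% and 8.09% in other cells of the window. All 40 genes are in the files, and Alb, the most counted, had 9932 and 8780 counts in the members. Across members, P and the hepatocyte share had a Spearman correlation of -0.75 (30 cells) and -0.53 (50 cells), both taken from the same counts of the same cells. There were 8 members of 30 and 5 of 50 with at least 15% hepatocyte counts, with median P of 6 and 10. Leaving such cells out of members and window alike, the cycling share was 3.01% (22 of 730) and 3.07% (45 of 1466). The part of hepatocyte RNA in the differences below was not tested.

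**Figure D3:**
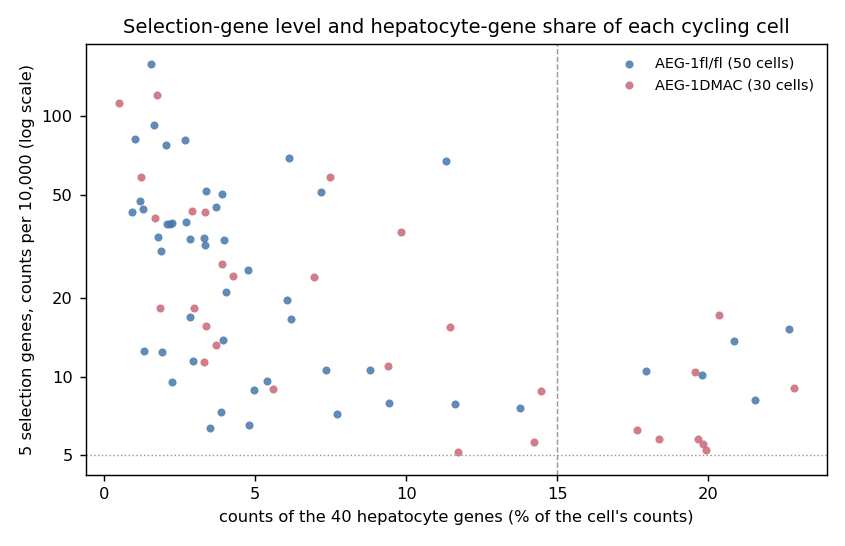
Counts of the 5 selection genes per 10000 (vertical axis, log scale) against the percentage of counts from 40 hepatocyte genes (horizontal axis) in each cycling cell, coloured by library; the dashed line marks 15%. The 8 and 5 cells to its right reach at most 17.2 per 10000.

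Cycling cells covered both S phase and G2/M in each library. Members held 688 S-list and 818 G2/M-list counts in the library labelled AEG-1DMAC, and 1103 and 1413 in the other, so that the S list gave 45.7% (43.1 to 48.2) and 43.8% (41.9 to 45.8) of their sum. In the library labelled AEG-1DMAC, 1 cholangiocyte-like cell held 152 of the S-list counts. There, 1 T/NK-like cell held 163 of the G2/M-list counts, so that share rests in part on single cells. In other cells of the window the S list gave 78.5% (77.0 to 79.9) and 78.4% (77.4 to 79.5), at summed levels of 223 and 305 CPM for S and 61.1 and 83.7 CPM for G2/M. Members stood at 2444 and 2513 CPM for S and 2906 and 3220 CPM for G2/M. S counts exceeded G2/M counts in 13 members, fell short in 15 and equalled them in 2 in the library labelled AEG-1DMAC. The corresponding numbers in the other library were 22, 27 and 1.

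**Figure D4:**
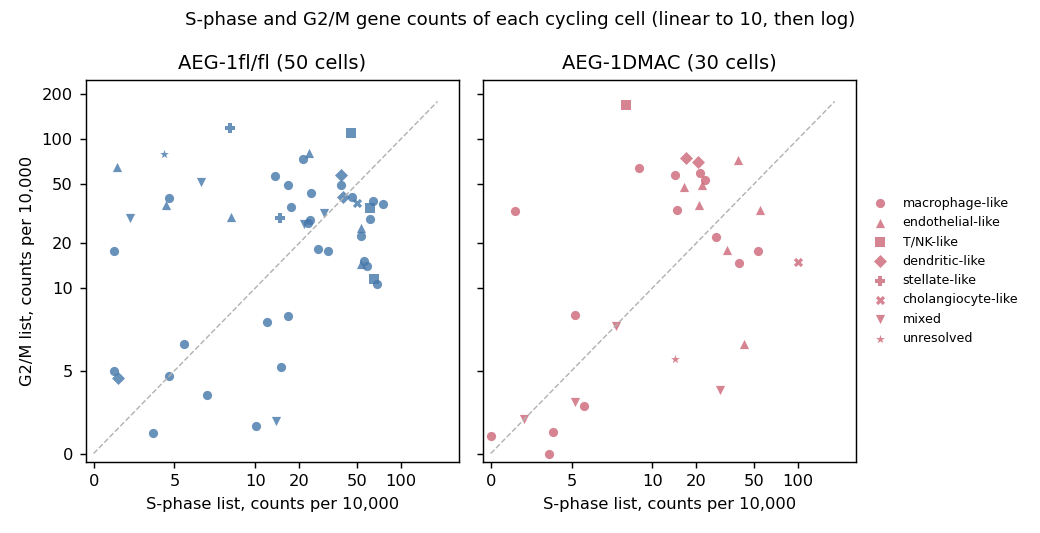
S-list counts (horizontal axis) and G2/M-list counts (vertical axis) per 10000 counts in each cycling cell, in both libraries; axes are linear to 10 and logarithmic beyond, and the dashed line marks equal levels. Members lie on both sides of the line in each library.

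By lineage, macrophage-like members had an S share of 41.5% (36.7 to 46.5) and 50.5% (47.7 to 53.4) in the libraries labelled AEG-1DMAC and AEG-1fl/fl, and endothelial-like members 51.6% (47.1 to 56.2) and 31.7% (26.2 to 37.7). The order between the libraries thus differed between the 2 lineages, with no replicate to set it against. Of the 251 S-list counts of endothelial-like members in the library labelled AEG-1DMAC, 84 and 72 were in 2 cells. Of the 85 in the other library, 33 and 23 were in 2 cells. Mki67 and Top2a followed the G2/M list across members, with a Spearman correlation of 0.89 and 0.74. The histone part of P had a correlation of 0.02 and 0.64 with the S list and 0.53 and 0.25 with the G2/M list. These correlations share cells and depth and are given without a test. Counts of both lists together were under 10 per 10000 in 6 of 30 and 4 of 50 members. Conversely, 36 and 85 cells of the window had at least 20 per 10000 of both lists, of which 22 and 40 were members.

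Cycling macrophage-like cells were set beside the other macrophage-like cells of the same library, 14 against 469 and 29 against 795. None of the 10 panels was for hepatocytes, so cells rich in hepatocyte counts could enter the class. Under 15% hepatocyte counts were found in 255 of all 483 macrophage-like cells in the library labelled AEG-1DMAC and 613 of 824 in the other. Among the cycling ones these numbered 10 of 14 and 25 of 29. The cells were chosen by cell cycle genes, so cell cycle lists are a description of how far the programme reached, and the values of each library stand side by side. Among 10461 genes with at least 20 summed counts in each library, 14.3% were at least 2-fold higher and 17.9% at least 2-fold lower in the library labelled AEG-1DMAC. In the other library 8.73% were higher and 13.3% lower. In both libraries at once, 4.37% were higher and 5.08% lower, and the median log2 ratio of all genes was 0.43 and 0.15. The selection genes were left out of these counts.

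S-phase genes stood at higher summed levels in cycling macrophage-like cells. Many genes of the S and mitotic lists reach the minimum of 20 counts largely through the cycling cells, where they are high, so the lists are given as sums over every gene in the files, with no minimum, and numbers of genes past 2-fold are not read as support. The 28 genes of replication licensing and the fork summed to 1649 CPM in cycling and 277 CPM in other macrophage-like cells of the library labelled AEG-1DMAC, and to 2318 and 400.5 CPM in the other. Pcna, the sliding clamp of DNA polymerase, stood at 118 CPM in cycling and 23.8 CPM in other macrophage-like cells of the library labelled AEG-1DMAC, and at 287 and 47.8 CPM in the other. Mcm7, whose promoter is shown above, stood at 151 against 15.6 CPM and 161 against 26.8 CPM. The 6 nucleotide supply genes summed to 555 against 119 CPM and 1159 against 117 CPM. Rrm2, the regulated subunit of ribonucleotide reductase, had 101 against 8.48 CPM and 416 against 8.53 CPM. It was counted in 5 of 14 cycling cells of the library labelled AEG-1DMAC and in 22 of 29 of the other. The 14 S-phase regulators summed to 951 against 113 CPM and 1280 against 153 CPM, and Uhrf1, which keeps DNA methylation through replication, stood at 126 against 3.44 CPM and 214 against 7.60 CPM.

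Sums of the G2 and mitotic lists were higher as well. The 28 genes of the kinetochore, spindle and cytokinesis summed to 2895 against 121 CPM in the library labelled AEG-1DMAC and to 2774 against 129 CPM in the other, and 14 of them reached the minimum. The 14 mitotic kinases, cyclins and factors in the files summed to 909 against 32.3 CPM and 1005 against 42.5 CPM. Kif11 was counted in 9 of 14 and 15 of 29 cycling macrophage-like cells, and in 6 of 469 and 16 of 795 others. Its counts were 39 in cycling and 7 in other cells of the library labelled AEG-1DMAC, and 43 and 20 in the other. Cdk1 stood at 126 against 6.87 CPM and 166 against 6.98 CPM. The 6 genes of the anaphase-promoting complex summed to 362 against 118 CPM and 545 against 111 CPM, among them Ube2c, its ubiquitin-conjugating enzyme, at 92.6 against 2.06 CPM and 153 against 2.95 CPM. Condensin, chromatin packing and tubulin genes summed to 1767 against 208 CPM and 2996 against 280 CPM, repair partners of replication to 665 against 34.6 CPM and 904 against 38.2 CPM, and histone genes outside the selection to 1439 against 451 CPM and 1760 against 352 CPM. With at least 5 counts expected in the cycling cells from the level of the others, 1 gene of the kinetochore list and none of the replication list remained.

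By the rule for named genes, the 10 highest genes common to both libraries were Ankle1, Kif23, Pkmyt1, Cdca3, Brip1, Stmn1, Ezh2, Lmnb1, Incenp and H2afx. The minimum of 50 counts behind this order was met largely through the cycling cells for genes such as Ankle1, whose place is a description. Ankle1, a nuclease of DNA bridges, with 41 counts in cycling and 11 in other cells of the library labelled AEG-1DMAC and 47 and 8 in the other, stood at 345 against 2.52 CPM and 190 against 1.24 CPM, with intervals of the log2 ratio of 6.11 to 8.21 and 6.16 to 8.55. It was found in 6 of 14 and 13 of 29 cycling cells and in 4 of 469 and 5 of 795 other macrophage-like cells, and in no neutrophil-like cell of the window. Kif23, a kinesin of the cytokinetic midzone, had log2 ratios of 4.57 (3.68 to 5.42) and 5.01 (4.47 to 5.56). Stmn1, which destabilises microtubules, was counted in 13 of 14 and 27 of 29 cycling cells and in 80 of 469 and 137 of 795 others. Neutrophil-like cells carried a Stmn1 count in 1 of 7 and 2 of 24 cells, at median depths of 2893 and 4201 counts.

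Genes of entry into the cycle summed to 741 against 356 CPM and 703 against 428 CPM. Of the 10 G1 cyclins, kinases and pocket proteins, 3 were higher in both libraries, beside 4.37% of all genes. Their medians were 0.54 and 0.51, close to the median of all genes in the library labelled AEG-1DMAC. Rbl1, the pocket protein p107, had log2 ratios of 3.61 and 2.84, and Ccnd3, cyclin D3, 0.09 and 0.70. Of the 3 tested inhibitors of cyclin-dependent kinases, Cdkn2c was at least 2-fold higher in both, at 3.20 and 3.57. Cdkn1b had log2 ratios of 0.98 (0.15 to 1.70) and 1.13 (0.64 to 1.58). Cdkn1a, the p53 target p21, had a log2 ratio of 0.04 in the library labelled AEG-1DMAC (16 counts in 9 of 14 cycling cells) and -2.13 in the other (7 counts in 5 of 29). Other macrophage-like cells carried a Cdkn1a count in 245 of 469 and 331 of 795, at 131 and 124 CPM.

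**Figure D5:**
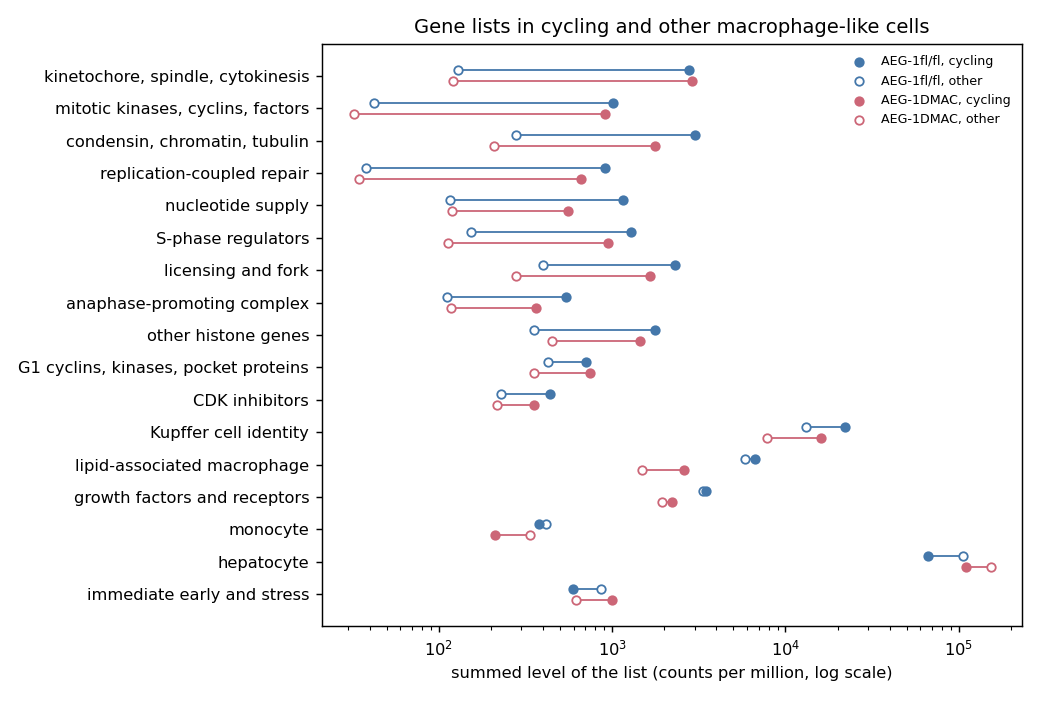
Summed level of each gene list (CPM, log scale) in cycling (filled) and other (open) macrophage-like cells of both libraries, joined by a line. Lists of replication and mitosis are higher in cycling cells of both libraries, and the hepatocyte list is lower in both.

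Kupffer cell markers were present in cycling macrophage-like cells. Of the 14 Kupffer identity genes, 4 were at least 2-fold higher in both libraries and none lower, with medians of 0.94 and 0.70. Over all genes, 4.37% were higher and 5.08% lower in both, with medians of 0.43 and 0.15. Some of these genes also assigned the cells to the class, so the counts are a description. Clec4f, the lectin by which Kupffer cells are known, stood at 2449 against 1153 CPM and 2459 against 1275 CPM. It was counted in 13 of 14 and 25 of 29 cycling cells, and endothelial-like cells outside the members, which should lack it, carried a count in 30.1% and 18.9% of cells (median depths 4366 and 3995.5 counts). Cd5l, a macrophage survival factor, had log2 ratios of 1.09 and 0.81. Marco, a scavenger receptor, rested on few cells, with 73 and 55 of 129 counts in 2 cells of the library labelled AEG-1DMAC and 49 and 45 of 110 counts in 2 cells of the other. Csf1r, the CSF1 receptor, was counted in all 14 and all 29 cycling cells, at log2 ratios of 0.82 and 0.44, and it is itself a panel gene.

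Other macrophage programmes differed between the libraries or stayed near the median of all genes. Over all genes, 14.3% were at least 2-fold higher and 17.9% lower in the library labelled AEG-1DMAC, and 8.73% and 13.3% in the other. Of 13 lipid-associated macrophage genes, 4 were higher and 1 lower in the library labelled AEG-1DMAC, with a median of 0.76, and none was past 2-fold in the other, with a median of 0.08. Gpnmb, a lysosomal glycoprotein of lipid-laden macrophages, had 51 of its 64 counts in 1 cycling cell of the library labelled AEG-1DMAC, and was counted in 6 of 14 cells there and 18 of 29 in the other. Of 20 growth factor and receptor genes, 2 were higher and 5 lower in the library labelled AEG-1DMAC and 1 higher and 4 lower in the other. Of 6 monocyte genes, none was higher in the library labelled AEG-1DMAC and 4 were lower, while 1 was higher and 1 lower in the other. The whole monocyte list had 25 and 94 counts in the cycling cells, so these calls rest on few counts. Ccr2, the chemokine receptor of recruited monocytes, had 3 counts in cycling cells of the library labelled AEG-1DMAC and 32 in the other, at log2 ratios of -1.62 and -0.56. Of 8 immediate early and stress genes, 3 were higher in the library labelled AEG-1DMAC, and 1 was higher and 1 lower in the other. Egr1, a member of that list, had a log2 ratio of 2.53 in the library labelled AEG-1DMAC, where 23 of 25 counts were in 1 cell.

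The hepatocyte list summed to less in cycling macrophage-like cells, 110091 against 152610 CPM and 66158 against 105846 CPM. None of its 40 genes was 2-fold higher, and 4 and 9 were 2-fold lower, with medians of -0.48 and -0.73. Beside the 17.9% of all genes that were lower in the library labelled AEG-1DMAC the count of 4 was under the background, and beside 13.3% in the other library the count of 9 was above it. The 10 lowest genes by the rule were Nr1i3, Mfsd2a, Ces3b, Adam11, Slc25a42, Echdc2, Fads6, Plin4, Gcgr and Dhtkd1. Nr1i3, the receptor CAR of hepatocyte drug metabolism, had 3 counts in the cycling cells of the library labelled AEG-1DMAC and 0 in those of the other, against 259 and 132 CPM in other macrophage-like cells. Gcgr, the glucagon receptor, had log2 ratios of -2.21 and -1.98. Cycling macrophage-like cells had a median hepatocyte share of 4.93% and 3.69%, and the others 13.7% and 6.75%.

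Between the libraries, sums of the replication, kinetochore and mitotic kinase lists lay close together over all members. The sum of lipid-associated macrophage genes was lower and that of hepatocyte genes higher in the library labelled AEG-1DMAC. Among 7627 genes with at least 20 counts in the members of both libraries together, 5.31% were at least 2-fold higher and 9.14% at least 2-fold lower in the library labelled AEG-1DMAC. Among 4484 genes in macrophage-like members, 6.96% were higher and 12.9% lower. The log2 ratio of the summed replication list was 0.02 (-0.12 to 0.16) over all members, of the kinetochore and spindle list 0.01 (-0.11 to 0.12), and of the mitotic kinase list 0.06 (-0.13 to 0.25). None of these 3 sums stood apart beyond counting error. The S list used for phase stood at -0.04 (-0.18 to 0.10). Slightly lower in the library labelled AEG-1DMAC were the G2/M list used for phase, at -0.15 (-0.27 to -0.02), and the condensin, chromatin packing and tubulin list, at -0.16 (-0.28 to -0.04). In that library 1 cholangiocyte-like cell held 152 of the 688 S-list counts. One T/NK-like cell held 163 of the 818 G2/M-list counts there. Sums over all members, and how close they lie, thus rest in part on single cells. The nucleotide supply list was lower at -0.61 (-0.84 to -0.38), with Rrm2 at 195 against 451 CPM and Tk1, thymidine kinase, at 245 against 365 CPM.

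In macrophage-like members alone, the replication list stood at -0.49 (-0.73 to -0.25) and the nucleotide list at -1.06 (-1.47 to -0.67), while the kinetochore and spindle list stood at 0.06 (-0.13 to 0.25). The mitotic kinase list stood at -0.15 (-0.49 to 0.19) and the G2/M list used for phase at -0.26 (-0.48 to -0.04). The S list used for phase stood at -0.79 (-1.04 to -0.54) in these cells. Condensin, chromatin packing and tubulin genes summed to -0.76 (-0.99 to -0.54). Rrm2 was the lowest gene with at least 10 counts in each library and 100 in all, at -2.04 (-3.04 to -1.18), with 12 counts against 103. Of the 15 replication genes tested in these cells, 5 were at least 2-fold lower and none higher in the library labelled AEG-1DMAC. Of all genes tested in them, 12.9% were lower and 6.96% higher. These sums rest on 14 and 29 cells of 1 library each. The 2 groups also differed in the value used for selection, with a median P of 9 and 16. At least 15% hepatocyte counts were found in 4 of 14 and 4 of 29. The part of these differences in the sums was not tested.

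Lipid-associated macrophage genes and Siglec1 were lower in members of the library labelled AEG-1DMAC, while Kupffer identity genes went both ways. Among macrophage-like members, Clec4f stood at 2449 against 2459 CPM, Timd4, a phosphatidylserine receptor, at 135 against 137 CPM, Vsig4, a complement receptor, at 404 against 327 CPM, and Marco, resting on the few cells named above, at 1086 against 444 CPM. Of the 14 Kupffer genes, 1 was at least 2-fold higher and 2 were lower there, with a log2 ratio of the sum of -0.47 (-0.54 to -0.39). Of all genes in macrophage-like members, 6.96% were higher and 12.9% lower. Siglec1 had the lowest log2 ratio of the genes named over all members, -2.23 (-2.86 to -1.64), with 27 counts against 197, and it stood at -1.80 (-2.46 to -1.19) in macrophage-like members. Other macrophage-like cells had 213 and 434 CPM of Siglec1. Over all members, Lpl, lipoprotein lipase, stood at 259 against 1005 CPM and Itgax, the integrin CD11c, at 53.3 against 214 CPM. Cd63, a lysosomal tetraspanin, stood at 56.8 against 210 CPM over all members. The remaining low genes by the rule were Ddit4, an inhibitor of mTORC1 signalling, with 15 counts against 99, and Emp3, with 17 against 99. In macrophage-like members alone, Ddit4 had 2 counts against 77. Over all members, 8 of 13 lipid-associated genes were lower and none higher, beside 9.14% and 5.31% of all genes. The lipid-associated list summed to -1.10 (-1.23 to -0.97) over all members and to -1.38 (-1.56 to -1.20) in macrophage-like members. Its level was 2584 against 6702 CPM in macrophage-like members and 1483 against 5805 CPM in other macrophage-like cells. The lower level was thus not particular to the members. In macrophage-like members H2-Eb1, an MHC class II chain, had 121 counts against 832, and Cyba, a subunit of the phagocyte oxidase, 17 against 116.

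Cdkn1a went the other way. It had 55 counts in 17 of 30 members of the library labelled AEG-1DMAC, 195 CPM, and 24 counts in 13 of 50 members of the other, 54.7 CPM. Endothelial-like members carried 35 of the 55 counts, and 5 of the 24. In the other endothelial-like cells the levels were 157 and 74.1 CPM.

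Hepatocyte genes were higher in members of the library labelled AEG-1DMAC. All 6 highest genes over all members, Gnmt, Oat, Ghr, Sds, Hpd and Cyp2c29, are expressed in hepatocytes. The log2 ratio of Sds was 1.75 over all members and -0.57 among those with P of at least 10 raw and per 10000. Gnmt, glycine N-methyltransferase, stood at 1009 against 196 CPM, a log2 ratio of 2.36 (2.01 to 2.73), and at 2.39 in macrophage-like members. The hepatocyte list summed to 0.71 (0.69 to 0.74), beside the hepatocyte shares of the members given above. Of its 39 tested genes, 10 were higher and none lower, beside 5.31% and 9.14% of all genes. Without cells of at least 15% hepatocyte counts, the median log2 ratio was 0.50 for that list and -1.50 for the lipid-associated list, against 0.74 and -1.68 with them. Among members with P of at least 10 raw and per 10000, the medians were 0.16 and -1.04, with 5 of 37 hepatocyte genes higher and 1 lower. Of all genes tested in those members, 8.79% were higher and 9.06% lower.

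Histone genes outside the selection summed to a log2 ratio of -0.02 (-0.18 to 0.14) between the libraries. Hist1h1a, a linker histone, had 252 and 406 CPM in members and 4.09 and 7.31 CPM in other cells. Hist1h1e, another linker histone, had 1009 and 941 CPM in members and 120 and 108 CPM in others. Hist1h2bc, an H2B gene, had 274 and 121 CPM in members and 277 and 192 CPM in others, and was not higher in members than in others in either library.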

How the data were processed

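The deposited values are raw counts of each of 19059 features in each cell of 2 libraries, made with a fixed-RNA probe assay; the labels name Cell Ranger 7.1.0 and mm10. Probes inside or outside the deleted part of Mtdh, doublet removal and ambient RNA correction were not given in the sources used here. No doublet caller was run and doublets were kept.

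From these counts, cells were selected as described in the report, assigned to lineages by 10 marker panels (at least 3 counts of at least 2 genes, and 2 times the next panel), and summed per library. CPM is counts per 1000000 of the summed total. Shares carry exact Clopper-Pearson intervals and counts exact Poisson intervals at 95%, and a count of 0 was given a limit of 3 counts. For thinning, each cell of at least 5000 counts was drawn down to 5000 counts, and P of at least 5 was then required. With 1 library per genotype no test was run, and genes were counted past a 2-fold ratio where they had at least 20 summed counts, in each library for cycling against other cells and over both libraries between them.

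Members and lists were chosen with earlier results of these data known. Named genes were the selection genes and 6 lineage markers, the 10 highest and 10 lowest of cycling against other macrophage-like cells (at least 50 summed counts, same sign in both libraries), the 6 highest and 6 lowest between libraries (at least 100 summed counts and 10 in each library), and up to 4 genes per list with the most member counts. Single cells, Ddit4, Timd4 and Vsig4 in macrophage-like members and the Egr1, Gpnmb and Marco counts per cell were singled out after their values were seen. Of the list genes, 5 were not matched in the files. Gene positions are from GENCODE on GRCm38, whose identifiers match the files, and promoters from RefSeq on GRCm38.p6. Calculations used Python 3.11.15, NumPy 2.4.6, SciPy 1.17.1, pandas 2.3.3 and matplotlib 3.10.9, and were tested on simulated data.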

Additional observations from a re-analysis of the deposited data

Results flagged for a closer look

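Cells outside the window also passed both limits on the 5 selection genes, which was a signal outside the cells described. There were 7 such cells of 972 with over 20000 counts in the library labelled AEG-1DMAC (0.720%, 0.290 to 1.48), with a median P of 47, and 20 of 954 in the library labelled AEG-1fl/fl (2.10%, 1.29 to 3.22), with a median P of 95.5. Of these, 4 and 8 were macrophage-like, and 3 in the library labelled AEG-1fl/fl were stellate-like. Their median hepatocyte share was 15.8% and 8.05%. Below the window, 7 of 474 cells with under 2000 counts passed both limits in the library labelled AEG-1fl/fl (1.48%, 0.596 to 3.02), with a median P of 8, and 0 of 268 did in the library labelled AEG-1DMAC.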

How the results depend on the processing

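With P of at least 10, the cycling share was 0.977% and 1.49% in the libraries labelled AEG-1DMAC and AEG-1fl/fl, the endothelial-like share of members in the latter was 3.23%, and the log2 ratio of Sds between libraries reversed to -0.57 from 1.75. With P of at least 3, the cycling share in the library labelled AEG-1fl/fl was 4.09%. Using 6 single markers, the macrophage-like share of members in the library labelled AEG-1DMAC was 26.7%, and thinning gave an S share of 42.4% there. With at least 50 summed counts, 282 genes in place of 457 were higher in both libraries in cycling macrophage-like cells. Between libraries the higher and lower genes then numbered 120 and 252 in place of 405 and 697 over all members, and 94 and 151 in place of 312 and 580 in macrophage-like members. With at least 5 expected counts in the cycling cells, which was chosen after seeing the data like the limit of 15% hepatocyte counts, 48 genes were higher and 163 lower in both, in place of 457 and 531. The higher limits test fewer genes; the cause of the other shifts was not tested. No paired analysis was possible because each genotype had 1 library. With 14 and 29 cycling macrophage-like cells, a gene of few counts can pass 2-fold by counting error.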
